A study of Homo sapiens with 3 samples.

Results

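The miR-106b-25 cluster is a group of 3 microRNA (miRNA) hairpins, miR-106b, miR-93 and miR-25, that lie close together in the gene MCM7. Its members were taken by name from the count tables as every entry for one of these hairpins with either arm suffix. This gave 6 of 1921 listed miRNA names, hsa-miR-106b-5p, hsa-miR-106b-3p, hsa-miR-93-5p, hsa-miR-93-3p, hsa-miR-25-5p and hsa-miR-25-3p. Small RNAs were sequenced from 3 strains of HCCLM3, a cell line from a human hepatocellular carcinoma (HCC), all grown in DMEM without a stated treatment. They are the parent, labelled as having low metastasis, subclone1, labelled as having a higher ability to metastasize that is specific to the lung, and subclone2, labelled with dual metastasis to lung and celiac lymph node. The study's methods describe single-cell cloning of metastatic foci from xenografts of a fluorescent HCCLM3 derivative, and call that parental line highly metastatic, so "low" is only the label of this library. The labels do not say which clones subclone1 and subclone2 are. Each strain had 1 library, so all differences given here are between libraries, without a replicate check, a test or a p-value.

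A miRNA hairpin is cut out of a longer transcript by Drosha and then by Dicer, which leaves a duplex of its 5′ arm (5p) and its 3′ arm (3p). One strand is usually retained in an Argonaute protein, where bases 2 to 8, the seed, guide it to messenger RNAs, while the other strand is mostly degraded. The 3 hairpins here are excised from an intron of the host transcript, and MCM7 itself encodes a subunit of the helicase that opens replication origins. The cluster is a relative of the miR-17-92 cluster, shares seeds with it, and is known in HCC and other tumors for targeting transcripts of the cell cycle inhibitor p21 (CDKN1A) and the pro-apoptotic protein BIM (BCL2L11).

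In GRCh38 (GENCODE release 29) all 3 hairpins lie on the minus strand of chromosome 7 within 515 bases, from 100093560 to 100094074. In transcription order these are MIR106B at chr7:100093993-100094074, MIR93 at chr7:100093768-100093847 and MIR25 at chr7:100093560-100093643, with gaps of 145 and 124 bases. They are in an intron of 8 of the 13 annotated MCM7 transcripts, and none overlaps an exon of any of the 13. In the transcript MCM7-201, which has 15 exons, this is intron 13. The count tables give names without coordinates, so these positions come from the annotation.

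Mature sequences of all 6 members were found in RefSeq (GRCh38.p14). They are shown because the members fall into seed groups that are compared below. Capitals mark the seed (bases 2 to 8), and each sequence runs 5′ to 3′.
hsa-miR-106b-5p: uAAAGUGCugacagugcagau
hsa-miR-93-5p: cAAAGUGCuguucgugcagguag
hsa-miR-25-3p: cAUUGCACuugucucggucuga
hsa-miR-106b-3p: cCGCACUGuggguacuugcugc
hsa-miR-93-3p: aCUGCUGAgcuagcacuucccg
hsa-miR-25-5p: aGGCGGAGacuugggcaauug
hsa-miR-106b-5p and hsa-miR-93-5p have the same seed, AAAGUGC, and hsa-miR-25-3p has AUUGCAC. The other 3 arms have seeds that no other sequenced name in the tables holds (1595 of the 1921 names had a sequence). The hairpins for which a change in arm usage was resolved are printed with both arms in capitals.
MIR106B: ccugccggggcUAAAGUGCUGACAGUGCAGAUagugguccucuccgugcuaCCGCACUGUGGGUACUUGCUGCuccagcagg
MIR25: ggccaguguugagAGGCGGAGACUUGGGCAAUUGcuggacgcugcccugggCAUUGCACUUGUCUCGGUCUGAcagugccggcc

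In the order parent, subclone1 and subclone2, which is used for every series of 3 library values from here on, the libraries held 7902438, 3570864 and 4568075 counts. Counts were scaled to a library total of 1e+06 (CPM), and levels carry exact 95% binomial intervals (Clopper-Pearson), which cover counting error only. For a count of 0 the upper end of this interval is 0.467, 1.03 and 0.808 CPM. A simpler limit of 3 counts corresponds to 0.380, 0.840 and 0.657 CPM. Of the listed hepatocyte markers, hsa-miR-122-5p had 53, 19 and 18 counts (6.71, 5.32 and 3.94 CPM), and hsa-miR-122-3p and hsa-miR-885-5p were at 0 in every library, so the defining miRNA of liver cells was almost absent from these HCC strains. Markers of blood cells, of endothelium and of neurons each summed to at most 6 counts in any library, while the 3 muscle names summed to 60, 83 and 36 counts (7.59, 23.2 and 7.88 CPM), mostly hsa-miR-1. Their part in the results below was not tested.

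All 6 members were detected in every library, and the last hairpin supplied most of the cluster's counts. Together the 6 members took 0.599% of all counts (0.594 to 0.605), 0.557% (0.549 to 0.565) and 0.493% (0.487 to 0.4996). The miR-25 hairpin supplied 73.9% of the cluster's counts, 80.1% and 76.6%. miR-93 supplied 18.9%, 14.8% and 17.5%, and miR-106b, the first hairpin to be transcribed, supplied 7.24%, 5.10% and 5.88%. Such comparisons of different miRNAs carry the ligation bias of the library kit, whereas the same miRNA compared between libraries does not depend on it as long as the bias is equal in each.

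hsa-miR-25-3p, the guide strand of miR-25, was the most abundant member, with 22079, 12125 and 11313 counts. This corresponds to 2794 CPM (2757 to 2831), 3396 CPM (3335 to 3456) and 2477 CPM (2431 to 2523), and it ranked 21 in all 3 libraries. On the CPM scale subclone1 was the highest and subclone2 the lowest, and the intervals did not overlap. The difference of subclone2 from the parent depended on the scaling, as given below.

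hsa-miR-25-5p, its partner strand, followed with 12906, 3819 and 5953 counts. The levels were 1633 CPM (1605 to 1662), 1069 CPM (1036 to 1104) and 1303 CPM (1270 to 1337). Here the order was different, with the parent highest and subclone1 lowest, so that the library with the most of the 3p strand had the least of the 5p strand.

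hsa-miR-93-5p had 8925, 2927 and 3927 counts, or 1129 CPM (1106 to 1153), 820 CPM (790 to 850) and 860 CPM (833 to 887). Both subclones were below the parent, and the intervals of the subclones overlapped. Its partner hsa-miR-93-3p was close to the limit of detection, with 15, 8 and 10 counts (1.90, 2.24 and 2.19 CPM), and no difference was detectable at this depth.

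hsa-miR-106b-5p had 2194, 640 and 661 counts, or 278 CPM (266 to 290) in the parent, 179 CPM (166 to 194) in subclone1 and 145 CPM (134 to 156) in subclone2. On the CPM scale the parent was highest and subclone2 lowest, without overlap. The difference between the subclones depended on the scaling, as given below. hsa-miR-106b-3p had 1236, 375 and 663 counts, or 156 CPM (148 to 165), 105 CPM (94.7 to 116) and 145 CPM (134 to 157). In this strand subclone1 was lowest, while the intervals of the parent and subclone2 overlapped.

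In order of level, the members were hsa-miR-25-3p, hsa-miR-25-5p, hsa-miR-93-5p, hsa-miR-106b-5p, hsa-miR-106b-3p and hsa-miR-93-3p in the parent and in subclone1. In subclone2 the order was the same except that hsa-miR-106b-5p (661 counts) and hsa-miR-106b-3p (663 counts) could not be told apart.

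**Figure D1:**
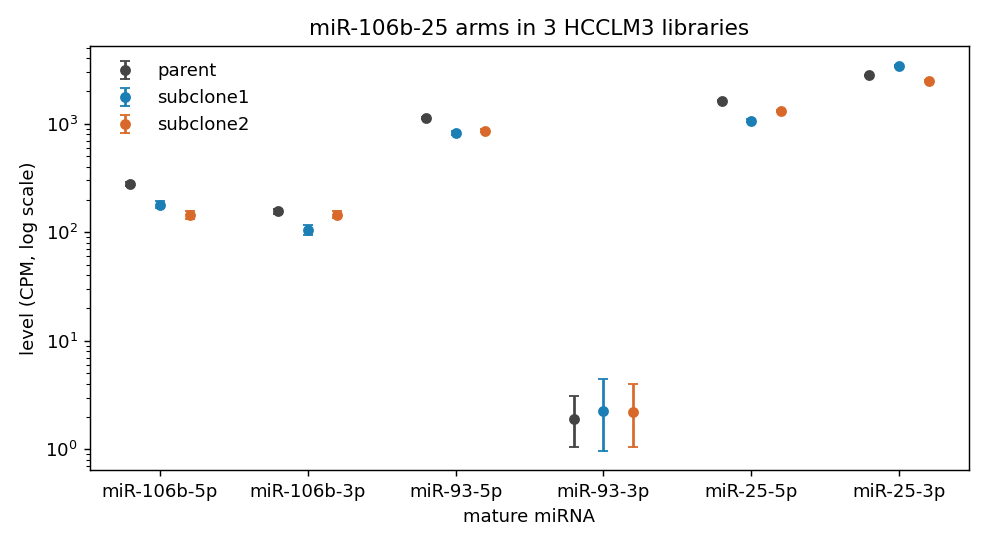
Level of each arm of the miR-106b-25 cluster in CPM (log scale) in the parent, subclone1 and subclone2 libraries, with exact 95% binomial intervals (counting error only). hsa-miR-25-3p sits between 2477 and 3396 CPM, hsa-miR-93-3p near 2 CPM, and hsa-miR-106b-5p and hsa-miR-106b-3p coincide in subclone2.

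To ask how the cluster differed in the strain labelled lung-specific, subclone1 was compared with the parent. The ratios are log2 of CPM with 0.5 counts added, with exact conditional binomial 95% intervals, and a miRNA was kept when its mean over both libraries was at least 10 CPM. Of the 6 members 5 were kept, and hsa-miR-93-3p was too low. A call required a ratio of 2-fold or more whose interval did not hold 1. Intervals are printed in log2, where a ratio of 1 is 0, and "above 1" or "below 1" refers to the ratio itself. By this rule 0 of the 5 kept members were called, against 13% of all 192 kept miRNAs.

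Within 2-fold, the members split into a group of 4 with lower levels and 1 with a higher level. hsa-miR-106b-5p had a log2 ratio of -0.63 (-0.76 to -0.50), hsa-miR-25-5p -0.61 (-0.66 to -0.56), hsa-miR-106b-3p -0.57 (-0.75 to -0.41) and hsa-miR-93-5p -0.46 (-0.52 to -0.40). The median of all kept miRNAs was 0.02, and all 4 lay in the lower part of the distribution. For example, 15 of the 192 kept miRNAs were below hsa-miR-106b-5p and 33 below hsa-miR-93-5p. The intervals of 4 members were wholly below 1, and so were those of 30.2% of all kept miRNAs. With a 1.5-fold threshold 2 of the 5 were called lower (hsa-miR-106b-5p and hsa-miR-25-5p), and so were 12% of all kept miRNAs.

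hsa-miR-25-3p was on the other side, at 0.28 (0.25 to 0.31), with 134 of 192 kept miRNAs below it and 38.5% of all kept miRNAs with an interval wholly above 1. Because ratios between members of 1 cluster do not depend on library scaling, the members were also compared with each other. Relative to hsa-miR-25-3p, hsa-miR-106b-5p was 1.88-fold lower in subclone1 than in the parent (log2 -0.91, -1.04 to -0.78) and hsa-miR-93-5p 1.67-fold lower (log2 -0.74, -0.81 to -0.68). By contrast hsa-miR-106b-5p and hsa-miR-25-5p, which come from different hairpins, differed by only -0.02 on the log2 scale (-0.16 to 0.12). The 5 members therefore did not move as 1 unit in subclone1.

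Subclone2, the strain labelled with dual tropism, was then set against the same parent library, so the ratios of the 2 subclones share their denominator. Here 0 of 5 kept members were called, against 10.7% of 187 kept miRNAs. The nearest to the threshold was hsa-miR-106b-5p, at -0.94 (-1.07 to -0.81), a level 1.92-fold lower than in the parent, with 10 of 187 kept miRNAs below it. With the 1.5-fold threshold it was the 1 member called lower, against 17.6% of all kept miRNAs. The intervals of 4 of the 5 members were wholly below 1 and none was wholly above, beside 47.6% and 21.9% of all kept miRNAs.

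The other members of subclone2 were closer to the middle of the distribution, with 53 to 102 of 187 kept miRNAs below them. Their log2 ratios were -0.39 (-0.45 to -0.34) for hsa-miR-93-5p, -0.33 (-0.37 to -0.28) for hsa-miR-25-5p, -0.17 (-0.21 to -0.14) for hsa-miR-25-3p and -0.11 (-0.25 to 0.03) for hsa-miR-106b-3p. All kept miRNAs had a median of -0.15, and TMM scaling, which corrects for the composition of the libraries, moved it by 0.17 to 0.02. With TMM the ratio of hsa-miR-25-3p was -0.0032 and that of hsa-miR-106b-3p changed sign to 0.06, so no direction is given for these 2 strands. Relative to hsa-miR-25-3p, hsa-miR-106b-5p was 1.70-fold lower than in the parent (log2 -0.77, -0.90 to -0.64), and hsa-miR-93-5p 1.16-fold lower (log2 -0.22, -0.28 to -0.16).

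Last, the strain labelled with dual tropism, subclone2, was compared with the one labelled lung-specific, subclone1. With 1 library of each strain, their differences cannot be tied to tropism to the lymph node. Again 0 of 5 kept members were called, against 5.76% of 191 kept miRNAs. No member was lower by 1.5-fold or more (16.2% of all kept miRNAs were). The strands of miR-106b and miR-25 that were less abundant in the parent and subclone1 had the highest log2 ratios. These were 0.47 (0.28 to 0.65) for hsa-miR-106b-3p and 0.29 (0.23 to 0.34) for hsa-miR-25-5p. The other strands of the same hairpins had negative ones, -0.31 (-0.47 to -0.15) for hsa-miR-106b-5p and -0.46 (-0.49 to -0.42) for hsa-miR-25-3p. hsa-miR-93-5p was at 0.07 (-0.0007 to 0.14). Intervals wholly above 1 were found for 2 of 5 members and 15.7% of all kept miRNAs, and intervals wholly below 1 for 2 of 5 and 44%. The median of all kept miRNAs was -0.17 and moved by 0.23 under TMM scaling, which left the sign of these 5 ratios as given. With TMM hsa-miR-106b-5p was at -0.08, and with median-of-ratios scaling at -0.10, so no order of the subclones is drawn for it. hsa-miR-25-3p was at -0.22 with TMM. The positive ratios grew with TMM, to 0.70 for hsa-miR-106b-3p, which is past 1.5-fold, 0.52 for hsa-miR-25-5p and 0.30 for hsa-miR-93-5p.

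**Figure D2:**
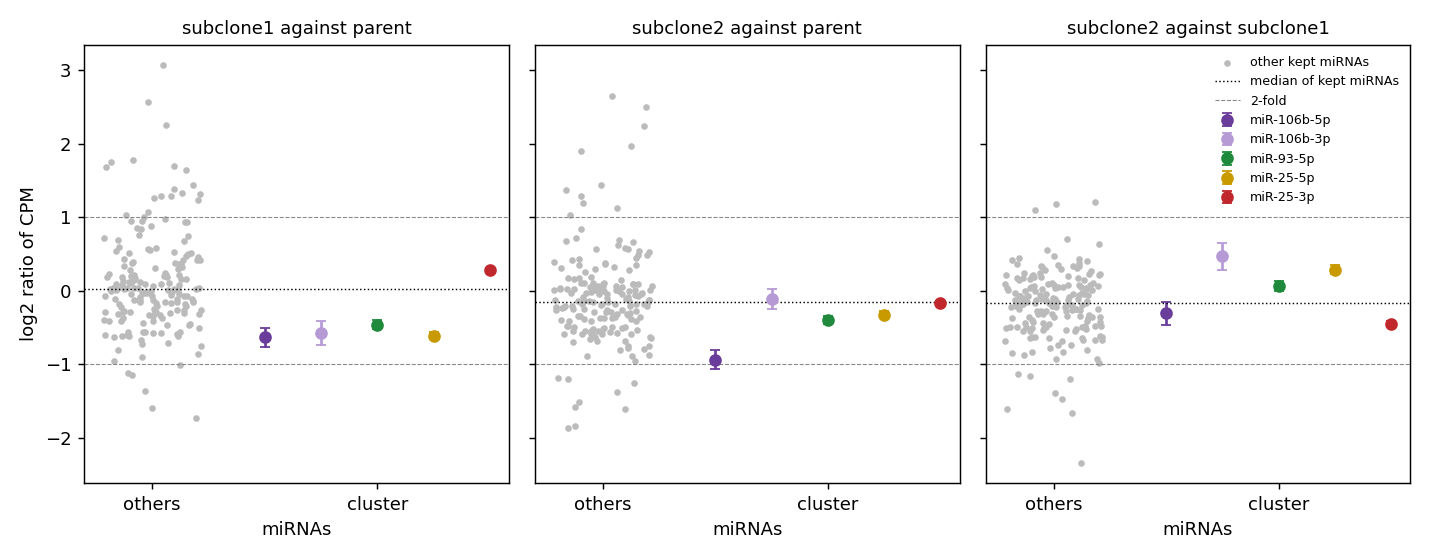
Log2 ratio of CPM for the 5 kept members (colored points, with 95% intervals of counting error) beside all other kept miRNAs (grey points) in the 3 comparisons of libraries. The dotted line marks the median of kept miRNAs and dashed lines 2-fold. In subclone1 hsa-miR-25-3p (0.28) lies apart from the other 4 members (-0.63 to -0.46), in subclone2 hsa-miR-106b-5p (-0.94) lies lowest, and no member is past 2-fold.

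Next, the use of the 2 arms was examined hairpin by hairpin, since both strands leave the precursor in equal number and their ratio within a library needs no scaling. The 3 hairpins had distinct patterns. miR-93 was almost wholly a 5p hairpin, with 99.8% of its counts on hsa-miR-93-5p (99.7 to 99.9), 99.7% and 99.7%. By counts, miR-25 favored its 3p arm and miR-106b its 5p arm in the parent and subclone1, but both had many counts on the other strand. hsa-miR-25-5p reached 1633 CPM in the parent, more than hsa-miR-93-5p in any library.

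In miR-25 the 5p arm held 36.9% of the hairpin's counts (36.4 to 37.4), 24.0% (23.3 to 24.6) and 34.5% (33.8 to 35.2). Subclone1 thus stood apart from the parent and subclone2. There were 3.17 counts of the 3p strand for each count of the 5p strand in subclone1, compared with 1.71 in the parent and 1.90 in subclone2. As the 2 strands differ in sequence, each of these ratios carries the ligation bias and is not a ratio of copies. Their change between libraries does not depend on that bias as long as it is equal in each. The change of the 5p to 3p ratio from the parent was -0.89 on the log2 scale in subclone1 (95% Woolf interval -0.95 to -0.83) and -0.15 in subclone2 (-0.21 to -0.10). Between the subclones it was 0.74 (0.67 to 0.81).

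In miR-106b it was subclone2 that stood apart. The 5p arm held 64.0% (62.3 to 65.6), 63.1% (60.0 to 66.0) and 49.9% (47.2 to 52.7). The change of the log2 arm ratio was -0.06 in subclone1 (-0.27 to 0.15), an interval that holds no change, and -0.83 in subclone2 (-1.02 to -0.65). Between the subclones it was -0.77 (-1.02 to -0.53). Hence the larger arm shifts of these hairpins, which lie within 515 bases, were in different libraries. miR-25 shifted toward its main strand in subclone1 and miR-106b away from its main strand in subclone2. The shift of miR-25 in subclone2 was smaller (-0.15), though its interval also excluded no change. For miR-93 the interval of the change was wide in each comparison (-1.95 to 0.47 in subclone1 and -1.75 to 0.51 in subclone2), since the 3p arm had at most 15 counts.

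**Figure D3:**
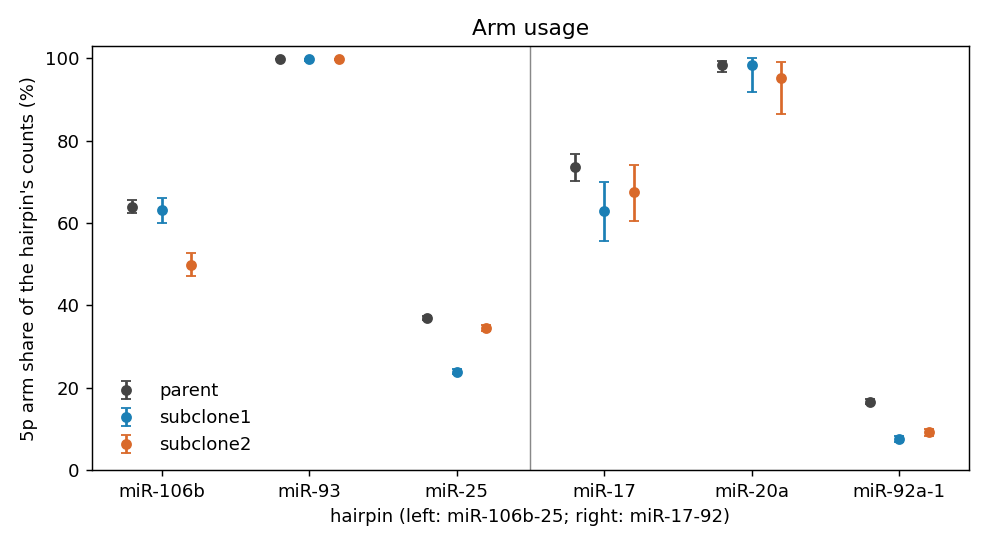
Share of each hairpin's counts on the 5p arm, in percent, with exact 95% binomial intervals, for the 3 hairpins of the cluster (left) and 3 hairpins of miR-17-92 (right) in each library. miR-25 is lowest in subclone1 (24.0%), miR-106b is lowest in subclone2 (49.9%), and miR-93 stays above 99% throughout. The 3p count of miR-92a-1 also holds reads of a second locus.

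These shifts were read against all hairpins listed with both arms, at least 30 counts per library and at least 10 counts per arm over both libraries. In subclone1 0 of 3 hairpins of the cluster changed their arm ratio by 2-fold or more beyond the interval, against 12.8% of 78 hairpins. In subclone2 it was 0 of 3 against 10.4% of 77, and between the subclones 0 of 3 against 12.3% of 73. By the size of the change, miR-25 ranked 16 of 78 in subclone1, and miR-106b 19 of 77 in subclone2. In both cases all but 1 of the hairpins with larger changes had fewer than 100 counts on an arm in at least 1 of the libraries. The interval of the change excluded 0 for 1 of the 3 hairpins in subclone1, against 35.9% of all kept hairpins, for 2 of 3 in subclone2, against 31.2%, and for 2 of 3 between the subclones, against 35.6%. In a choice made after the data were seen, hairpins with at least 100 counts on each arm in both libraries were taken alone. miR-25 then ranked 2 of 18 in subclone1, where the median size of the change was 0.24 on the log2 scale, and miR-106b ranked 2 of 19 in subclone2, with a median size of 0.21. With the sign kept, the median change of these hairpins was -0.17 in subclone1 and -0.13 in subclone2. It thus leaned toward the 3p arm, the direction of miR-25 and miR-106b. None of these well-counted hairpins reached 2-fold (0% in each comparison). miR-92a-1 was left out of all these counts and ranks because its 3p strand comes from a further locus as well, and its arm pair changed more than either, by -1.29 in subclone1 and -0.97 in subclone2. That reason was not applied to every hairpin. Both miR-365a and miR-365b were kept, although they are listed with the same 3p counts (618, 285 and 236). miR-365b (0.85) was the well-counted hairpin ranked above miR-106b in subclone2, so these ranks and shares depend on which hairpins are kept. The interval excluded no change in 50% of the 18, 57.9% of the 19 and, between the subclones, 66.7% of 18. Arm ratios of single libraries thus often differed beyond counting error, and the spread between cultures of 1 strain was not measured.

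Among hairpins outside the cluster whose arms are listed as a pair under 1 name, the 3 with the most counts were one-sided in every library. let-7f, which had more counts on its 5p arm, is not among them because its 3p arms are not listed under that name. The 3p arm held at most 0.0034% of let-7a and 0.0038% of let-7b, and the 5p arm at most 0.0119% of miR-222. Ample counts on both strands were not particular to miR-25 and miR-106b, since 18 hairpins, these included, had at least 100 counts on each arm in the parent and subclone1. miR-17 of the related cluster had 525 counts on its 5p arm and 189 on its 3p arm in the parent. It had 117 and 69 in subclone1, so it is not among these 18.

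**Figure D4:**
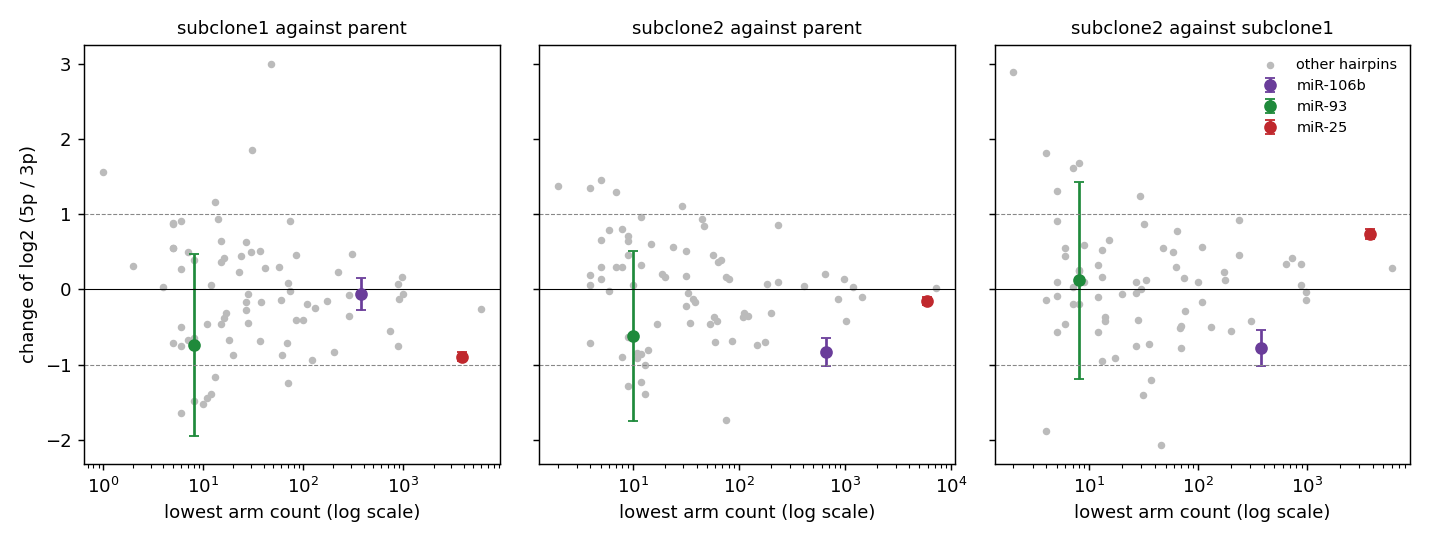
Change of the log2 ratio of 5p to 3p counts in each comparison, against the lowest arm count of the hairpin in either library (log scale), for hairpins of the cluster (colored, with 95% Woolf intervals) and all other kept hairpins (grey). miR-25 in subclone1 (-0.89) and miR-106b in subclone2 (-0.83) lie near the dashed 2-fold line among hairpins with many counts on both arms, while most larger changes of others occur at low counts, with 1 exception of at least 100 counts on each arm in each of these comparisons. miR-92a-1 is not drawn.

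The members were then placed among the other miRNAs with the same seed, which can bind the same sites. For the seed AAAGUGC the tables listed hsa-miR-17-5p, hsa-miR-20a-5p, hsa-miR-20b-5p, hsa-miR-106a-5p, hsa-miR-526b-3p and, by name only, hsa-miR-519d. The close relatives are shown for comparison with hsa-miR-106b-5p and hsa-miR-93-5p above, with the seed in capitals.
hsa-miR-17-5p: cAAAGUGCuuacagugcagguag
hsa-miR-20a-5p: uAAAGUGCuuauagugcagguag
hsa-miR-106b-5p differs from hsa-miR-17-5p at 3 of 21 aligned bases, and hsa-miR-93-5p from hsa-miR-20a-5p at 4 of 23. How reads with errors were assigned among them is not given in the sources used here.

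hsa-miR-93-5p and hsa-miR-106b-5p carried nearly all of this seed. Together they held 92.5% of its counts (91.99 to 92.9), 95.1% (94.4 to 95.8) and 96.0% (95.4 to 96.6). hsa-miR-17-5p had 66.4, 32.8 and 28.7 CPM, and hsa-miR-20a-5p 47.5, 18.2 and 12.9 CPM. hsa-miR-106a-5p had 5 counts in the parent and 0 in each subclone, and hsa-miR-20b-5p, hsa-miR-526b-3p and hsa-miR-519d were at 0 in every library. The summed seed was 1522 CPM (1494 to 1549), 1050 (1017 to 1084) and 1046 (1017 to 1076). On the CPM scale the subclones did not differ beyond counting error, with a log2 ratio of -0.01 (-0.07 to 0.06), although it was -0.54 in each against the parent. The shift of 0.23 that TMM scaling gives between the subclones is larger than this difference. The share of hsa-miR-106b-5p in this seed was 18.2%, 17.1% and 13.8%.

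For the seed AUUGCAC the picture was different, since hsa-miR-25-3p shared it with abundant relatives from other loci. These are hsa-miR-92a-3p, made from MIR92A1 in the miR-17-92 cluster and from MIR92A2, and hsa-miR-92b-3p from chromosome 1.
hsa-miR-92a-3p: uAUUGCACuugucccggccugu
hsa-miR-92b-3p: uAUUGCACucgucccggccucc
hsa-miR-25-3p differs from hsa-miR-92a-3p at 4 of 22 bases and from hsa-miR-92b-3p at 6 of 22. hsa-miR-25-3p held 46.2% of the seed's counts (45.7 to 46.6), 53.6% (52.9 to 54.2) and 43.6% (43.0 to 44.2). hsa-miR-92b-3p held 32.48%, 30.004% and 39.34%, and hsa-miR-92a-3p 21.26%, 16.35% and 17.02%. hsa-miR-32-5p had 36, 15 and 14 counts, hsa-miR-363-3p 1, 0 and 0, and hsa-miR-367-3p none.

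The summed level of this seed was 6050, 6337 and 5682 CPM, with log2 ratios of 0.07 (0.04 to 0.09) and -0.09 (-0.11 to -0.07) against the parent. Scaling by TMM shifts ratios by -0.06 in subclone1 and 0.17 in subclone2, so the latter turns positive and no direction is given for these sums. Without hsa-miR-25-3p the sum was 3256, 2942 and 3205 CPM. In subclone1 the higher hsa-miR-25-3p therefore stood beside a lower sum of its seed relatives (log2 -0.15, -0.18 to -0.11). Of these, hsa-miR-92a-3p was at -0.31 (-0.37 to -0.26), while hsa-miR-92b-3p was little changed at -0.05 (-0.09 to -0.006).

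**Figure D5:**
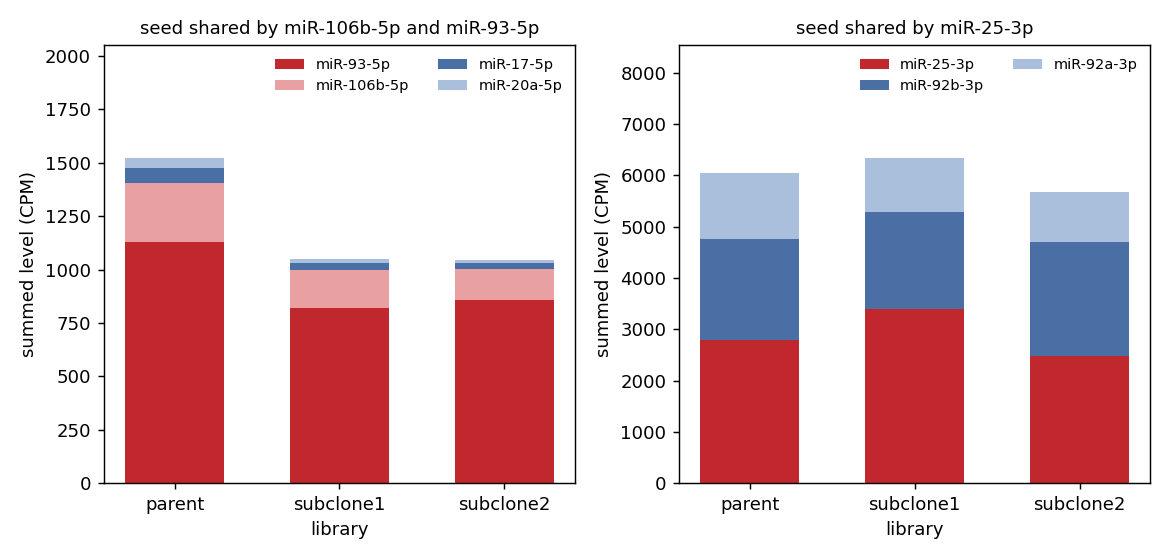
Summed level in CPM of miRNAs with the seed of hsa-miR-106b-5p and hsa-miR-93-5p (left) and of hsa-miR-25-3p (right) in each library, stacked by miRNA, with members of the cluster in red shades and those outside in blue. Names with under 5 CPM in every library are not drawn. hsa-miR-93-5p makes up most of the left stacks, which are lower in both subclones (1050 and 1046 CPM) than in the parent (1522 CPM), while the right stacks lie between 5682 and 6337 CPM.

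Finally, the cluster was compared with its relative miR-17-92 (12 listed names). The summed counts of miR-106b-25 were 3.48 times those of miR-17-92 (3.41 to 3.54), 4.59 times (4.44 to 4.75) and 4.35 times (4.22 to 4.49). This excess over miR-17-92 was larger in both subclones by 0.40 (0.35 to 0.46) and 0.32 (0.27 to 0.38) on the log2 scale. Most of the miR-17-92 sum was hsa-miR-92a-3p (10165 of 13624 counts in the parent). It and hsa-miR-19b-3p are each also made from a second hairpin, so the sum is not of that cluster alone.

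The excess over single relatives with the same seed differed from pair to pair. hsa-miR-93-5p exceeded hsa-miR-20a-5p 23.8-fold (21.4 to 26.4), 44.7-fold (34.99 to 57.1) and 66.0-fold (51.1 to 85.3). hsa-miR-106b-5p exceeded hsa-miR-17-5p 4.18-fold (3.80 to 4.59), 5.45-fold (4.48 to 6.64) and 5.03-fold (4.17 to 6.07), and here the interval of the change in subclone2 held 0 (log2 0.27, -0.03 to 0.57). hsa-miR-25-3p exceeded hsa-miR-92a-3p 2.17-fold, 3.28-fold and 2.56-fold. Over hsa-miR-92b-3p its excess was 1.42-fold, 1.79-fold and 1.11-fold, so that it was larger than in the parent in subclone1 (log2 0.33, 0.28 to 0.38) and smaller in subclone2 (log2 -0.36, -0.41 to -0.31).

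The hairpins miR-25 and miR-92a-1, each the last of its cluster, were also set side by side for their arms. The 5p strand hsa-miR-92a-1-5p held 16.6% of the counts of its arm pair (16.0 to 17.3), 7.55% (6.75 to 8.41) and 9.23% (8.43 to 10.1). Its log2 arm ratio changed by -1.29 in subclone1 (-1.47 to -1.10) and by -0.97 in subclone2 (-1.13 to -0.82). Thus the share of the 5p strand was lowest in subclone1 in both hairpins, while in subclone2 the change was -0.15 for miR-25. The comparison is limited by hsa-miR-92a-3p, which also comes from MIR92A2. miR-17, whose 5p arm has the seed of hsa-miR-106b-5p, had 73.5% (70.1 to 76.7), 62.9% (55.5 to 69.9) and 67.5% (60.4 to 74.1) of its counts on the 5p arm, and its log2 arm ratio changed by -0.71 (-1.20 to -0.22) for subclone1 and -0.42 (-0.92 to 0.07) for subclone2.

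The miRNAs outside the cluster with the pattern most like that of each main strand were sought over 192 miRNAs kept on all 3 libraries, as the smallest Euclidean distance over the log2 ratios of both subclones to the parent. With only 3 libraries this is a description of these ratios. hsa-miR-106b-5p was nearest to hsa-miR-222-3p (distance 0.034; log2 ratios -0.60 and -0.95), hsa-miR-221-5p (0.17) and hsa-miR-1293 (0.19). hsa-miR-93-5p was nearest to hsa-miR-191-5p (distance 0.026; log2 ratios -0.46 and -0.37), hsa-miR-186-5p (0.072) and hsa-miR-425-5p (0.11). hsa-miR-25-3p was nearest to hsa-miR-548k (distance 0.051; 0.24 and -0.20), hsa-miR-500a-3p (0.10) and hsa-miR-502-3p (0.11). No miRNA was among the 3 nearest of more than 1 strand.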

How the data were processed

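Small RNA was sequenced from cultured cells (Trizol RNA, 1 ug into the Illumina TruSeq Small RNA kit), 1 library for each of 3 strains, grouped by the sample titles. The authors deposited unscaled read counts per mature miRNA name. The submitters' processing notes list CASAVA 1.4 and build hg19 without a role. Trimming, aligner, miRBase release and the treatment of reads matching several miRNAs are not given in the sources used here. The tables show no molecular identifiers, so intervals hold for counting error alone and are wider for the smaller libraries.

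CPM, exact binomial and Woolf intervals were computed with Python 3.11.15 and scipy 1.17.1, and TMM and median-of-ratios factors with edgeR 4.0.16 in R 4.3.3. The ratio and arm procedures were tested on simulated data. With 1 library per group no test was possible. Members, lists and thresholds were chosen with earlier results of these data known. Named miRNAs are all members, names sharing their seeds, miR-17-92, the 3 nearest miRNAs of each hairpin's main strand, and the 3 other hairpins with the most counts among those whose arms are listed under 1 stem name. Fewest mismatches are over ungapped alignments. Alternatives were 3 other scalings, a minimum of 100 CPM or none, a 1.5-fold threshold, a pseudocount of 5 and the sum without hsa-miR-25-3p.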

Additional observations from a re-analysis of the deposited data

Results flagged for a closer look

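hsa-miR-25-3p was marked because its log2 ratios to the parent had opposite signs in the subclones, at 0.28 in subclone1 and -0.17 in subclone2. Each interval excluded no change. With 1 library per strain this difference was not tested, and the value in subclone2 was -0.0032 under TMM scaling.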

How the results depend on the processing

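No paired analysis was possible because every strain has a single library, which also meant that none could be left out. The summed cluster had log2 ratios of -0.11 for subclone1 and -0.28 for subclone2 over the parent, and -0.18 for subclone2 over subclone1. These were -0.17, -0.11 and 0.056 under TMM scaling, -0.17, -0.13 and 0.038 under median-of-ratios scaling, and -0.18, -0.21 and -0.032 when the 10 top miRNAs of each library were left out of the total. Without hsa-miR-25-3p they were -0.56, -0.38 and 0.17. The sign between the subclones therefore depends on the scaling and on that member, and no direction is drawn from it. The median ratio of the 5 kept members was -0.57 in subclone1, and lay between -0.65 and -0.52 under the alternatives. In subclone2 this median was -0.33, and -0.15 (TMM), -0.18 (median of ratios), -0.25 (total without the top miRNAs) and -0.25 (no minimum, all 6 members). Between the subclones the median of members was 0.07, and 0.30, 0.28 and 0.21 under these 3 scalings. With a 1.5-fold threshold 2 members were called in subclone1 and 1 in subclone2, and the number called stayed at 0 under the other alternatives. Of 72 values for single members, 0 were past 2-fold and 5 changed sign, 2 for hsa-miR-106b-3p over the parent in subclone2 and 3 for hsa-miR-93-3p between the subclones. Arm ratios do not depend on scaling, and a pseudocount of 5 left each within its interval. Depth limits hsa-miR-93-3p, with 8 to 15 counts.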
